A study of Homo sapiens with 72 samples.

Results

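Messenger RNA of parental DU145 was sequenced in 12 of the 72 libraries of the series: 4 of wild type, 4 of TUT4/7 mutant 1 and 4 of TUT4/7 mutant 2. DU145 is an established prostate cancer line that was derived from a metastatic site, and its parental form does not make detectable LIN28A protein. The members described below were the genes whose read count changed with the same sign in both mutant clones, at a Benjamini-Hochberg adjusted p under 0.01 in each (a call, from edgeR's quasi-likelihood test). Of 26485 genes in the count files, 13839 had enough reads to be tested, and 819 of these (5.92%) were members.

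The mutants were made with pairs of CRISPR nickase guides in TUT4 and in TUT7, upstream of the exon that encodes the catalytic domain, and the study names each mutant as an independent clone, so that the loss of TUT4/7 and the history of a clone cannot be told apart within a group. The labels give mutant 1 as 1 clone throughout and add a different last figure to the clone name of mutant 2 in each replicate. Replicates were consecutive passages, 4 that ended at passage 160 for wild type, 9 to 12 of mutant 1 and 8 to 11 of mutant 2, so p-values measure only the spread between these libraries, and the labels do not settle whether those of mutant 2 are 1 clone or several of its descendants. Wild type with high passage numbers was therefore compared with clones with low ones, and the numbers alone do not say where each count starts. Within these libraries of parental DU145, genotype, clone and passage number cannot be told apart. The comparison lines were the same wild type and clones after transduction with a CMV-driven LIN28A cDNA (passages 1 to 4), and wild type and 2 other double mutant clones of the ovarian cancer line IGROV1, which expresses LIN28A. Each of these groups had 4 mRNA libraries.

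TUT4 and TUT7 are terminal uridylyltransferases. They add uridines to the 3′ ends of RNA, among them precursor let-7 miRNAs when LIN28A recruits them, mature miRNAs, and messenger RNAs with shortened poly(A) tails, which are then taken up by 5′ and 3′ exonucleases. The comparison of both clones with wild type addresses how the steady-state messenger RNA pool differs in cells without the full-length enzymes and without LIN28A.

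Libraries held 7195437 to 12565155 reads in genes. Wild type replicate 1, mutant 1 replicate 4 and mutant 2 replicate 4 stood apart: between 8.32% and 9.42% of their reads fell outside genes, against 9.75% to 12.4% in the other 9, and their gene-wise deviations from their own group means correlated with each other (Pearson's r 0.43 to 0.66 across genes, which are not independent). Without these 3 libraries, 425 genes were higher and 677 lower in both clones, in place of 356 and 463. The epithelial keratins KRT8 and KRT18 were abundant in every group (means 812, 1114 and 1422 CPM and 471, 489 and 794 CPM in wild type, mutant 1 and mutant 2). EPCAM, an epithelial adhesion molecule, was at 56, 11.8 and 55.7 CPM: mutant 1 had a lower level than wild type and mutant 2 did not differ by the test. Of 17 markers of cells of other origin, 2 had no read in any library, the leukocyte marker PTPRC stayed below 0.05 CPM on average in every group, and the summed level of the list ranged from 20.6 to 42.4 CPM in wild type, 18.1 to 23.6 in mutant 1 and 28.4 to 66.3 in mutant 2. The mucin MUC16, 1 of the 17, was at 23.6, 2.55 and 33.6 CPM on average in the 3 groups. Of the 5 markers with enough reads to be tested, 3 were higher and 1 lower in mutant 1 and 1 was higher in mutant 2. Their median changes were 1.20 in mutant 1 and 0.51 in mutant 2 (log2).

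TUT4, listed under its older symbol ZCCHC11, lies on chromosome 1 from 52408282 to 52553487 on the minus strand (hg38, GENCODE). Exon 12 of its reference transcript spans 52477708 to 52477882 and exon 16 spans 52465070 to 52465173; the study numbers its target as exon 12, and its transcript model was not given. In CPM, a gene's reads brought to a common library size with TMM factors, TUT4 was at 48.4, 65.9, 66.8 and 51.1 in wild type, 15.5, 13.1, 15 and 5.35 in mutant 1 and 42.6, 45.9, 42.6 and 26.7 in mutant 2. TUT4 thus differed from wild type by -2.22 ± 0.25 (adjusted p = 1.01e-05) in mutant 1 and -0.56 ± 0.23 (adjusted p = 0.0758) in mutant 2 (log2). All mutant 1 libraries lay below all other libraries, whereas mutant 2 lay below wild type in every library but missed the threshold. The 2 clones differed from each other by 1.66 (mutant 2 minus mutant 1, log2, adjusted p = 6.94e-05).

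TUT7, listed as ZCCHC6, lies on chromosome 9 from 86287733 to 86354454 on the minus strand, with exon 14 of its reference transcript from 86322325 to 86322475 and exon 16 from 86318958 to 86319058. It was at 33.8, 54.2, 45.5 and 43.2 in wild type, 21.4, 12, 16.3 and 8.02 in mutant 1 and 24.4, 25.8, 25.5 and 14.6 in mutant 2 (CPM). On the log2 scale the change was -1.59 ± 0.25 (adjusted p = 1.84e-04) in mutant 1 and -0.97 ± 0.24 (adjusted p = 0.00606) in mutant 2. Every mutant library lay below every wild type library. The call in mutant 2 was lost when wild type replicate 2, 3 or 4 or any single mutant 2 library was left out, with adjusted p from 0.0104 to 0.0195 and log2 fold changes from -1.04 to -0.82. A small insertion or deletion in an exon need not lower the RNA, so these levels neither check nor contradict the labels. LIN28A averaged 0.116 CPM in wild type, 0.128 in mutant 1 and 0.142 in mutant 2, too low to be tested.

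Among the other terminal nucleotidyltransferases tested, PAPD5 and FAM46C fell in both clones. PAPD5 (TENT4B), which adds adenosines with occasional other bases, was at 97.4, 54.7 and 64.2 CPM in wild type, mutant 1 and mutant 2. FAM46C (TENT5C), a poly(A) polymerase, was at 4.73, 0.698 and 2.25 CPM. The log2 fold changes were -0.83 and -0.60 for PAPD5 and -2.71 and -1.07 for FAM46C. PAPD4 (TUT2), TUT1, MTPAP and PAPD7 were not called in either clone. With TUT7, 3 of the 10 tested members of this list were lower in both, and leaving out any of 6 single libraries reduced that to 1. Of 40 tested genes for the decay of uridylated RNA, USB1, a 3′ exonuclease that trims U6 snRNA, rose (70.3, 157.6 and 129 CPM), and CNOT7, a deadenylase, fell (139, 107 and 54.3 CPM). Each is 1 of 40, beside 2.57% higher and 3.35% lower of all genes tested. CNOT7 was not called in both clones with RLE or upper-quartile scaling, without the filter, in a fit of all 36 mRNA libraries, with replicates 1 and 2 against 3 and 4 as a block, without the 3 libraries that stood apart, or without any 1 of 10 libraries (all but mutant 1 replicate 3 and mutant 2 replicate 4). CNOT7 lies in the stretch of chromosome 8 described below.

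In mutant 1, 1572 genes were higher and 1750 lower than in wild type, 11.4% and 12.6% of the genes tested. In mutant 2, 1522 were higher and 1587 lower, 22.5%. The clones differed from each other in 4657 genes, 33.7% of those tested, more than either differed from wild type. With the replicate number as a block over the 8 mutant libraries, whose same-numbered libraries deviate together in part, that count was 7690 of 13705 genes tested (56.1%). Both clones shared 356 genes that were higher (2.57%) and 463 that were lower (3.35%), and a further 295 genes (2.13%) were called with opposite signs. Without wild type replicate 3 alone, 209 were higher and 185 of opposite sign. Both contrasts use the same 4 wild type libraries, so a wild type value that is high or low by chance moves a gene the same way in both. The median change of the members was 1.03 in mutant 1 and 0.97 in mutant 2 for the higher genes, and -0.83 and -0.89 for the lower ones, against -0.012 and -0.0096 over all genes tested (log2). In 341 of the 356 higher and 438 of the 463 lower genes, every mutant library lay on the same side of every wild type library; over all genes tested, called or not, all mutant libraries lay above all wild type libraries in 658 (4.75%) and below them in 852 (6.16%). The size of the change still differed between the clones in 95 of the higher and 126 of the lower genes, and in 371 in place of 221 members with that block. Because these are bulk libraries, fewer cells of a type and less RNA per cell cannot be told apart.

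**Figure D1:**
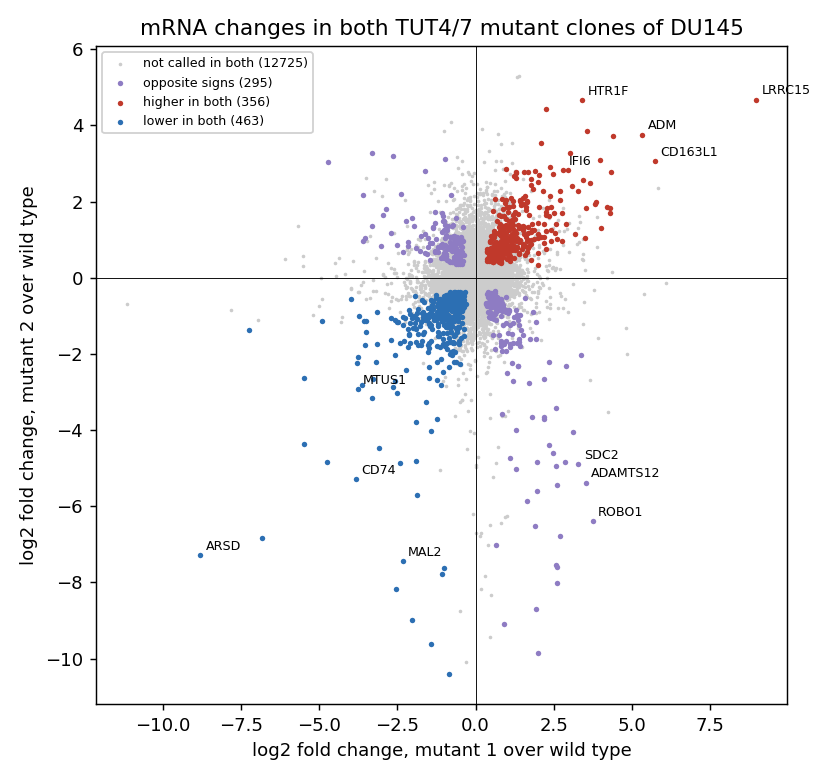
Log2 fold change of each of the 13839 genes tested in mutant 1 (x axis) and mutant 2 (y axis) over wild type, 4 libraries a group. Red and blue points are the 356 and 463 genes called with the same sign in both clones and purple points the 295 called with opposite signs; values fitted against groups with no read depend on edgeR's prior count.

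Genes named below for the largest or most abundant shared changes were chosen among members whose mutant and wild type libraries did not overlap. For these, a lack of overlap between mutant and wild type is part of the choice and not a result. Of the genes with the largest shared increases, several were nearly silent in wild type. LRRC15, a leucine-rich repeat membrane protein of stromal cells, had no read in the 4 wild type libraries, 245 reads in mutant 1 and 13 in mutant 2. Set against a floor of 3 reads over the wild type group, it was at least 78-fold higher in mutant 1 and at least 3.86-fold higher in mutant 2. ADM, which encodes the vasodilator peptide adrenomedullin, was at 2.21, 1.25, 1.02 and 1.33 in wild type, 50.6, 58, 55.8 and 69.9 in mutant 1 and 17.3, 17.5, 19.3 and 24.2 in mutant 2 (CPM). Against wild type, mutant 1 differed by 5.33 ± 0.21 (adjusted p = 4.26e-10) and mutant 2 by 3.76 ± 0.21 (adjusted p = 1.25e-08) (log2), and all 8 mutant libraries lay above wild type. CD163L1, a scavenger receptor, was at 0.240 ± 0.107 CPM in wild type, 13.4 ± 2.40 in mutant 1 and 2.099 ± 0.492 in mutant 2 (mean ± SD, n = 4). HTR1F, a serotonin receptor, was at 0.272 ± 0.145 CPM in wild type, 2.91 ± 0.756 in mutant 1 and 7.07 ± 1.43 in mutant 2. CD163L1 was higher in mutant 1 than in mutant 2 and HTR1F the other way round, without overlap of the libraries.

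The remaining large increases were of mixed function. CCL5, a chemokine that attracts T cells, was at 0.441, 0.208, 0.186 and 0.241 in wild type, 6.01, 8.13, 5.30 and 3.27 in mutant 1 and 4.14, 4.73, 3.48 and 2.36 in mutant 2 (CPM), with no overlap of mutant and wild type libraries. The log2 fold changes were 4.38 ± 0.40 (adjusted p = 1.37e-06) in mutant 1 and 3.72 ± 0.42 (adjusted p = 8.96e-06) in mutant 2. FOXL2, a transcription factor of the ovary, was at 0.882, 18 and 6.10 CPM (means of wild type, mutant 1 and mutant 2), PADI3, a protein arginine deiminase, at 0.202, 1.56 and 1.93 CPM, TMOD1, an actin-capping tropomodulin, at 0.302, 4.16 and 1.87 CPM, and TXNIP, which binds thioredoxin and limits glucose uptake, at 1.07, 7.80 and 7.30 CPM. PECAM1, an endothelial adhesion molecule, was at 0.103, 1.33 and 1.76 CPM. It was the 1 marker of the list of other cell types called in both clones (2 without wild type replicate 3). The endothelial genes VWF and CDH5 averaged under 0.8 CPM in every group. Among members with at least a log2 change of 1 in both clones, the most abundant increases were COL4A2 (102, 326 and 232 CPM), a chain of basement membrane collagen, KRT81, a hair keratin (78.5, 171 and 337 CPM), and CYP24A1, which degrades vitamin D (44, 323 and 117 CPM).

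Interferon-stimulated genes had the largest share of shared increases among the lists with at least 10 tested genes. These genes are switched on when interferon, or sensors of foreign RNA and DNA, activate the transcription factor complex that contains IRF9 and binds the interferon-stimulated response element in their promoters, and their products restrict viruses. Of 42 tested list members, 17 rose in both clones and none fell in both. For this and every list below, the shares over all genes tested were 2.57% higher and 3.35% lower in both clones. Against wild type, 24 rose and 1 fell in mutant 1, and 22 rose and 1 fell in mutant 2. The list's median change was 1.06 in each clone (log2), against -0.012 and -0.0096 over all genes tested. The 17 calls became 10 without wild type replicate 3, 11 without mutant 1 replicate 2, and 22 without the 3 libraries that stood apart.

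IFI6, which encodes a mitochondrial and endoplasmic reticulum protein with antiviral activity, was at 32.3, 20.5, 19.9 and 23.5 in wild type, 158.8, 327, 109 and 73.6 in mutant 1 and 205, 186, 179 and 112 in mutant 2 (CPM). IFI6 thus differed from wild type by 2.80 ± 0.37 (adjusted p = 4.51e-05) in mutant 1 and 2.83 ± 0.37 (adjusted p = 3.56e-05) in mutant 2 (log2). MX1, a dynamin-like GTPase that blocks viral replication, was at 22.6, 20.9, 18.8 and 16.4 in wild type, 71.1, 155, 57 and 38.9 in mutant 1 and 134, 154, 133 and 90.9 in mutant 2. For MX1 the changes were 2.03 ± 0.33 (adjusted p = 2.22e-04) and 2.70 ± 0.33 (adjusted p = 1.93e-05). In both genes all mutant libraries lay above all wild type libraries, and within mutant 1 replicate 2 was the highest and replicate 4 the lowest.

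IFIT1, which binds RNA without a methylated cap, was at 22, 13.7, 9.58 and 27.8 in wild type, 80.2, 124, 52.6 and 29.99 in mutant 1 and 132, 121, 93.6 and 66 in mutant 2 (CPM). On the log2 scale the change was 1.99 ± 0.39 (adjusted p = 0.00113) in mutant 1 and 2.51 ± 0.40 (adjusted p = 1.78e-04) in mutant 2. IFI27, another interferon-induced membrane protein, was at 1.21, 0.623, 0.372 and 0.724 in wild type, 11.3, 21.1, 8.71 and 4.45 in mutant 1 and 6.76, 5.65, 7.80 and 4.45 in mutant 2. For IFI27 the changes were 3.99 ± 0.47 (adjusted p = 1.55e-05) and 3.09 ± 0.49 (adjusted p = 2.02e-04). As in IFI6 and MX1, the mutant and wild type libraries did not overlap. Outside the rule for named genes, and chosen after their values were seen, ISG15 (the ubiquitin-like modifier; 40.005, 121 and 137 CPM in wild type, mutant 1 and mutant 2), IFIT2 (14.8, 51.9 and 74.9 CPM), OAS2 (an RNA-sensing oligoadenylate synthetase; 1.25, 4.47 and 8.61 CPM) and the factors IRF9 (12.3, 28.4 and 38.3 CPM) and IRF7 (13.2, 23.4 and 55.1 CPM) also rose in both clones. IFITM3, a membrane protein that blocks virus entry, was at 80.3, 77.1 and 4.79 CPM and fell in mutant 2 alone.

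**Figure D2:**
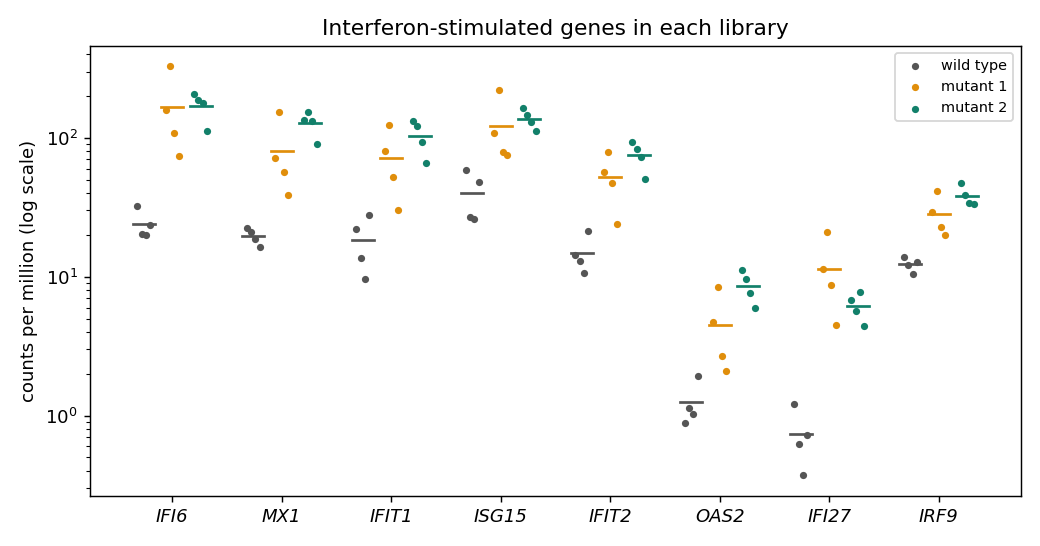
CPM (log axis) of 8 interferon-stimulated genes in each of the 12 libraries; points are libraries and bars are group means. All mutant points lie above the wild type points of the same gene.

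The promoters of 4 of these genes are printed as examples of windows that hold the interferon response element. Of the 33 tested genes of this list with a window, 24 had a match to its core. MX1 had 3 windows, of which 1 is printed. Each window runs from 250 bases before to 50 bases after an annotated start (RefSeq, GRCh38.p14), 5′ to 3′ along the gene, and capitals mark each match to the core of the response element (GAAA, any 2 bases and GAAA) on either strand.
IFI6 (chr1:27672143-27672442, minus strand): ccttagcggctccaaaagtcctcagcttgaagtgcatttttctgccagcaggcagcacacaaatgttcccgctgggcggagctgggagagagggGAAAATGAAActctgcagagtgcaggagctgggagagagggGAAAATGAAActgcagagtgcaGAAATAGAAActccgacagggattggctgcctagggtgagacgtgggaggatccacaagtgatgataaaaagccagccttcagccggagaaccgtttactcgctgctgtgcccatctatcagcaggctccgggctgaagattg
IFIT1 (chr10:89392373-89392672, plus strand): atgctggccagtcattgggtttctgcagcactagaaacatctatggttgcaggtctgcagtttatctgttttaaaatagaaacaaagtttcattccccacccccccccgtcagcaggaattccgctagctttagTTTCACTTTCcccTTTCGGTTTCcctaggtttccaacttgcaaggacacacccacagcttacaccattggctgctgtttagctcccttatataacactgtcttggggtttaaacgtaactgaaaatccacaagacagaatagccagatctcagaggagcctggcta
MX1 (chr21:41420308-41420607, plus strand): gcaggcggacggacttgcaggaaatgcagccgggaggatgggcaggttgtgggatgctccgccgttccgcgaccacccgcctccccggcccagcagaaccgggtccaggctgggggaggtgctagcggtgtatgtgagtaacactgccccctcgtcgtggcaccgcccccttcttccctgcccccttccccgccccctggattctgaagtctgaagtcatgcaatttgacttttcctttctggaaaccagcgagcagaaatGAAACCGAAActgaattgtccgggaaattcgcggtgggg
ISG15 (chr1:1013247-1013546, plus strand): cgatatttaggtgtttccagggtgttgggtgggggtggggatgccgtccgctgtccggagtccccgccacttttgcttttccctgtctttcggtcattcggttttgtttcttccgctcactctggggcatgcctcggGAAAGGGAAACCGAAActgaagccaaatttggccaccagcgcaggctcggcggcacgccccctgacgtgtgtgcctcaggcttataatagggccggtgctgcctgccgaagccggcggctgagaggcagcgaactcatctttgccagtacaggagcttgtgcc

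The IFI6 window holds 3 matches, the IFIT1 window 2, the printed MX1 window 1 and the ISG15 window 2 that overlap. Windows were found for 13 of the 17 interferon-stimulated genes that rose in both clones, and 10 of the 13 (76.9%) had a match. The 25 tested list members that were not called in both clones had windows for 20, of which 14 (70%) had a match. Over all tested genes with a window, 411 of 10891 (3.77%) had one. Of the 270 other genes that were higher in both clones and had a window, 14 had a match (5.19%), and of the 340 lower genes 6 did (1.76%). The AP-1 site TGANTCA was found for 10.2% of the higher, 6.76% of the lower and 7.02% of all tested genes with a window. The E-box CACGTG was found for 9.89%, 10.3% and 12.4%, and the TATA box TATAAA for 12%, 8.82% and 8.32%, each on both strands. A match is a description of the letters and not a bound site.

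Antigen presentation genes moved in both directions. NLRC5, the activator of MHC class I genes, rose (9.51, 28.8 and 19.7 CPM in wild type, mutant 1 and mutant 2), as did HLA-F (17.2, 51.6 and 26.2 CPM), whose reads can be shared among related class I genes. CIITA, the activator of MHC class II genes, and 2 genes that it controls fell. CD74, the invariant chain of class II, was at 31.6, 33, 29.7 and 32.8 in wild type, 2.50, 3.05, 1.62 and 1.48 in mutant 1 and 0.606, 1.38, 0.985 and 0.284 in mutant 2 (CPM). Against wild type, mutant 1 differed by -3.84 ± 0.24 (adjusted p = 2.51e-08) and mutant 2 by -5.28 ± 0.27 (adjusted p = 7.87e-09) (log2). HLA-DRA, the class II alpha chain, was at 4.74, 4.15, 3.63 and 5.55 in wild type, 0.648, 1.20, 1.08 and 0.148 in mutant 1 and 0.101, 0.115, 0.227 and 0.0946 in mutant 2, and CIITA at 2.12 ± 0.459 CPM in wild type, 0.535 ± 0.347 in mutant 1 and 0.140 ± 0.127 in mutant 2. In all 3 every mutant library lay below every wild type library. HLA-DRB1 was called with opposite signs (0.59 and -0.50). Of the 22 tested members of the list 3 rose and 3 fell in both clones, and against wild type mutant 1 had 12 higher and 3 lower where mutant 2 had 3 and 6. The 3 increases became 1 when any of 7 single libraries was left out (wild type replicate 2, 3 or 4, mutant 1 replicate 1, or mutant 2 replicate 1, 2 or 3).

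In both clones 3 chemokines of the CXC family fell. CXCL5, which attracts neutrophils, was at 10.7, 10.3, 9.40 and 9.06 in wild type, 3.98, 2.86, 3.68 and 4.16 in mutant 1 and 0, 0, 0 and 0 in mutant 2 (CPM), and mutant 2 had no read, at least 139-fold lower than wild type against a floor of 3 reads over the group. CXCL1 was at 3.85, 0.326 and 1.43 CPM and CXCL2 at 11.2, 1.23 and 5.97 CPM (means). These 3 fell and CCL5 rose among 25 tested cytokine and NF-kB response genes. In a fit of all 36 mRNA libraries 1 was lower, and without the 3 libraries that stood apart 5 were lower and 2 higher.

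ARSD, an X-linked sulfatase, had 214 reads in wild type, none in mutant 1 and 1 in mutant 2. It was at least 74.7-fold lower in mutant 1, and in mutant 2 the ratio of wild type to mutant was 240.2 (95% exact interval 42.7 to 9532, counting error only). POF1B, an actin-binding protein of epithelia on the same chromosome, was at 2.54, 4.15, 2.98 and 4.71 CPM in wild type and 0.925, 0.277, 0.719 and 0.445 in mutant 1, with no read in mutant 2, at least 50.1-fold lower. MAL2, a protein of apical membrane transport on chromosome 8, was at 67.4, 85, 109 and 75.7 in wild type, 17.9, 19.9, 21.6 and 6.38 in mutant 1 and 0.404, 0.461, 0.379 and 0.662 in mutant 2. For MAL2 the changes were -2.34 ± 0.26 (adjusted p = 7.60e-06) and -7.44 ± 0.39 (adjusted p = 7.87e-09), and the 3 groups did not overlap.

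MTUS1, a microtubule-associated protein on chromosome 8, was at 96, 135, 133 and 111 in wild type, 10.6, 8.68, 11.5 and 3.12 in mutant 1 and 19.2, 18, 16.2 and 9.46 in mutant 2 (CPM). The log2 fold changes were -3.77 ± 0.29 (adjusted p = 2.26e-07) in mutant 1 and -2.92 ± 0.27 (adjusted p = 1.27e-06) in mutant 2. FAM167A, in the same region, was at 117 ± 21.4 CPM in wild type, 24.7 ± 1.37 in mutant 1 and 21.9 ± 1.80 in mutant 2. S100A9, a subunit of calprotectin, was at 15.3, 27.6, 39.1 and 47.2 in wild type, 5.09, 7.39, 4.67 and 3.12 in mutant 1 and 3.94, 7.73, 4.70 and 1.51 in mutant 2. All 3 fell in both clones without overlap of the libraries. ATP8A1, a phospholipid flippase (3.61, 0.267 and 0.525 CPM), QPRT, an enzyme of NAD synthesis (3.64, 0.576 and 0.570 CPM), CHD5, a chromatin remodeller (5.73, 1.05 and 0.696 CPM), and SULT4A1, a sulfotransferase-like protein (2.87, 0.311 and 0.114 CPM), were low in wild type and fell further. The most abundant decreases of at least 1 on the log2 scale were SCD (1491, 648 and 642 CPM), the desaturase that makes oleate, HSP90B1, the chaperone of the endoplasmic reticulum (1330.0, 621 and 652 CPM), and EDIL3, a secreted integrin ligand (687, 311 and 193 CPM).

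Cholesterol and lipid synthesis genes, many of them targets of SREBP transcription factors, fell together in number: 9 of 32 tested members were lower in both clones and 1, ELOVL6, was higher, and 20 were lower in mutant 1 and 11 in mutant 2. The list's medians were -0.69 and -0.37. SCD was at 1283, 1815, 1664 and 1201 in wild type, 762, 635, 773 and 422 in mutant 1 and 621, 844, 696 and 409 in mutant 2 (CPM). SCD thus differed from wild type by -1.20 ± 0.22 (adjusted p = 7.35e-04) in mutant 1 and -1.21 ± 0.22 (adjusted p = 6.48e-04) in mutant 2 (log2). LSS, the lanosterol synthase, was at 157.9, 54.2 and 78.1 CPM, CYP51A1, which demethylates lanosterol, at 166, 78.1 and 86 CPM, and STARD4, a sterol carrier, at 57.9, 25 and 24 CPM (means of wild type, mutant 1 and mutant 2). The count stayed between 8 and 10 when each library was left out in turn, and the increase of ELOVL6 was lost without wild type replicate 3 or mutant 1 replicate 1 and in a fit of all 36 mRNA libraries. Of the 9 lower members, 3 lay on the chromosomes 7, 8, 14, 18 and 21 described below.

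Of 32 tested genes of glycolysis and the hypoxia response, 7 fell and 2 rose in both clones. HK2, the hexokinase that commits glucose to glycolysis, was at 61.7, 66.4, 76.3 and 42.5 in wild type, 17.8, 16.6, 16.6 and 17.5 in mutant 1 and 31.9, 20.1, 19.6 and 17.2 in mutant 2 (CPM). On the log2 scale the change was -1.85 ± 0.20 (adjusted p = 5.54e-06) in mutant 1 and -1.48 ± 0.19 (adjusted p = 3.08e-05) in mutant 2, and the libraries did not overlap. PFKL, the liver phosphofructokinase (217, 103 and 99.5 CPM), PDK1, which keeps pyruvate out of the mitochondria (30.8, 15 and 11.2 CPM), and VEGFA, the vascular growth factor (379.5, 188 and 189 CPM), also fell. ADM, a hypoxia target as well, was among the largest increases. NDRG1 rose in mutant 1 and fell in mutant 2 (1.40 and -1.68). Against wild type, mutant 2 had 16 lower members and mutant 1 had 7. The genes that rose numbered 1 without wild type replicate 2, 3 or 4 or mutant 2 replicate 2.

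Of 78 tested ribosomal protein genes, 10 were lower in both clones and none higher, 15 were lower in mutant 1 and 36 in mutant 2, and 60 had a log2 fold change below 0 in both; the medians were -0.11 and -0.45. Their summed level was 56792, 49740.1, 46353 and 45597 CPM in wild type, 38865, 48096, 39049 and 50037 in mutant 1 and 35543, 33639, 33711 and 40573 in mutant 2: mutant 1 replicates 2 and 4 lay within the wild type range, and all mutant 2 libraries below it. RPL4 was at 1669.7, 1141 and 1077 CPM and RPS27A at 390.2, 249.8 and 264 CPM. For RPL4 the changes were -0.55 ± 0.10 (adjusted p = 7.20e-04) and -0.63 ± 0.10 (adjusted p = 2.17e-04). Other examples were RPL3 (1503, 1059 and 936 CPM) and RPS27 (706, 467 and 507 CPM). The count of 10 fell to between 4 and 5 without any of 8 single libraries (wild type replicate 1, 2 or 3, mutant 1 replicate 1 or 3, or mutant 2 replicate 1, 2 or 3) and to 6 with upper-quartile scaling, and reads of these genes can be shared with processed pseudogenes.

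In the unfolded protein and ATF4 response, 3 of 28 tested genes fell in both clones and none rose. HSP90B1 was at 916, 1904, 1642 and 858 in wild type, 762, 596, 678 and 450.0 in mutant 1 and 809, 547, 719 and 531 in mutant 2 (CPM). PDIA4, a protein disulfide isomerase, was at 590.3, 237 and 273 CPM and ASNS, the asparagine synthetase, at 279, 74.9 and 134 CPM. For ASNS the libraries overlapped: wild type replicates 1 and 4 were at 172 and 167 CPM, below mutant 2 replicate 1 at 184 CPM. The list's medians were -0.85 and -0.62, with 16 members lower in mutant 1 and 3 in mutant 2. Wild type was split: the summed level of the list was 6726, 13827, 13628 and 6272 CPM in wild type, 6035, 5538, 5619 and 5993 in mutant 1 and 8179.9, 5771, 7036 and 6059 in mutant 2, so that replicates 2 and 3 of wild type lay above every other library while replicates 1 and 4 lay within the mutants' range. The part of this split in the decreases was not tested. The count of 3 became 1 without wild type replicate 2 or 3 or mutant 2 replicate 2 or 4, 6 without wild type replicate 1 or 4, and 6 without the 3 libraries that stood apart.

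Some epithelial junction genes fell and some mesenchymal and matrix genes rose. CLDN4, a tight junction claudin, was at 27.6, 41.3, 27.6 and 48.5 in wild type, 9.53, 6.37, 5.21 and 5.49 in mutant 1 and 13.4, 11.8, 10.2 and 9.27 in mutant 2 (CPM). Against wild type, mutant 1 differed by -2.43 ± 0.23 (adjusted p = 1.79e-06) and mutant 2 by -1.70 ± 0.22 (adjusted p = 2.73e-05) (log2). PKP1, a plakophilin of desmosomes, was at 9.27, 11.7, 11.4 and 7.24 in wild type, 0.740, 0.739, 0.808 and 1.19 in mutant 1 and 3.23, 2.31, 2.73 and 3.31 in mutant 2. Both fell without overlap of the libraries. DSG2, a desmosomal cadherin, was at 623, 334 and 254 CPM and KRT15, a basal keratin, rose (2.47, 5.65 and 6.37 CPM). Over the list, 5 of 34 tested members were lower and 1 was higher in both clones, and against wild type mutant 1 had 18 lower members where mutant 2 had 10. DSP and TJP1 were called with opposite signs (-2.16 and 0.95 for DSP, -0.52 and 0.67 for TJP1).

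ZEB2, a repressor of epithelial genes, was at 0.110, 0.519, 0.186 and 0.724 in wild type, 5.46, 5.64, 5.75 and 4.90 in mutant 1 and 1.01, 1.61, 1.44 and 1.80 in mutant 2 (CPM). ZEB2 was higher in every mutant library than in wild type, and higher in mutant 1 than in mutant 2. The log2 fold changes were 3.83 ± 0.33 (adjusted p = 7.15e-07) in mutant 1 and 1.94 ± 0.39 (adjusted p = 0.0013) in mutant 2. SERPINE2 (22.6, 122 and 44.3 CPM) and S100A4 (20.9, 38.6 and 35.9 CPM) were also among the 4 of 24 mesenchymal genes that rose in both clones, while TGFBI, LOX and LOXL2 rose in mutant 1 and fell in mutant 2. Among 40 tested matrix, protease and integrin genes 6 rose and 1 fell. COL4A1 and COL4A2, which share a promoter region and pair in type IV collagen, were at 42.2, 144 and 97.2 CPM and 102, 326 and 232 CPM, COL18A1 at 202, 437 and 352 CPM and COL16A1 at 2.58, 5.42 and 9.31 CPM.

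Growth factor genes were split, with 3 of 29 higher and 4 lower in both clones, beside 2.57% higher and 3.35% lower of all genes tested. EGF rose (3.54, 10.1 and 24.3 CPM) and its family's receptor ERBB3 fell (39.2, 12.3 and 18.3 CPM), as did BMP7, a bone morphogenetic protein (1.36, 0.128 and 0.139 CPM). The 4 decreases were 2 without wild type replicate 2. Among let-7 targets and oncofetal genes, 2 of 24 tested were called: IGF2BP1, an RNA-binding protein, was at 2.54, 4.36, 5.21 and 3.38 in wild type, 8.51, 8.04, 10.2 and 10.4 in mutant 1 and 24, 25.4, 27.3 and 23.5 in mutant 2 (CPM) and rose by 1.24 and 2.68 (log2), and CDC25A, the cell cycle phosphatase, was at 13.6, 32.3 and 31.7 CPM. HMGA2, another let-7 target, had changes of -0.77 (adjusted p = 0.0176) and 1.54 (adjusted p = 2.47e-05). ADARB1, an RNA-editing enzyme (28, 10.8 and 18.5 CPM), and DDX17, a helicase of the Microprocessor (482, 289 and 321 CPM), fell among 18 miRNA processing genes. Leaving out any of 7 single libraries (wild type replicate 2, 3 or 4 or any of mutant 2) took that count of 2 to 1 or 0. Upper-quartile scaling left 1, as did the replicate number as a block and replicates 1 and 2 against 3 and 4 as a block.

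Of 28 NRF2 target and detoxification genes, ABCC2, an export pump (16.9, 38.4 and 28.3 CPM), and CYP24A1 rose, and GCLM (135, 97.7 and 98.6 CPM) and TXNRD1 (3328, 2464 and 2155 CPM), of the glutathione and thioredoxin systems, fell. Leaving out 1 library left 1 of the increases (wild type replicate 1 or 4, or mutant 2 replicate 2 or 3) and 1 of the decreases (mutant 1 replicate 1 or 4, or mutant 2 replicate 1, 2 or 4) or none (wild type replicate 2 or 3, or mutant 1 replicate 2). S100A3 (3.70, 11.6 and 7.22 CPM) rose with S100A4, the 2 increases among 19 S100 and metallothionein genes; 1 was left without wild type replicate 2 or mutant 2 replicate 3, and none without wild type replicate 3 or 4 or mutant 2 replicate 2. Among histone genes 1 of 23, HIST1H2BN (1.73, 3.87 and 4.34 CPM), was higher in both clones (2 without wild type replicate 4), but 18 were higher in mutant 1 and 1 in mutant 2, with list medians of 1.35 and -0.10; poly(A) selection captures only the polyadenylated fraction of histone RNA. CDC25A was the 1 gene higher in both clones of 42 for DNA replication and mitosis; that count was 8 without wild type replicate 1 alone, 9 without the 3 libraries that stood apart and 4 with DESeq2 or without the filter, and the list's medians were 0.37 and 0.28. The summed level of these genes was 8196, 3581, 4914 and 9265 CPM in wild type, 8067, 7583, 7343 and 9556 in mutant 1 and 6856, 7331, 7577 and 7658 in mutant 2. Wild type replicates 2 and 3 lay below all other libraries, and replicates 1 and 4 within the mutants' range. CDC25A itself was at 18.1, 8.31, 9.40 and 18.6 in wild type, 29.6, 33.8, 27.6 and 38.3 in mutant 1 and 22.7, 35.3, 29.8 and 39 in mutant 2, lower in every wild type library than in every mutant library. The part of the split in these changes was not tested. In the lists of oxidative phosphorylation (49 tested), BCL2 family (14), HOX genes (26), miRNA host genes (10), cancer-testis antigens (4) and prostate identity (12), no gene was called with the same sign in both clones. Leaving out 1 wild type library gave 1 lower gene in prostate identity (replicate 1 or 4), oxidative phosphorylation (replicate 2), the BCL2 family (replicate 2) and miRNA host genes (replicate 1).

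**Figure D3:**
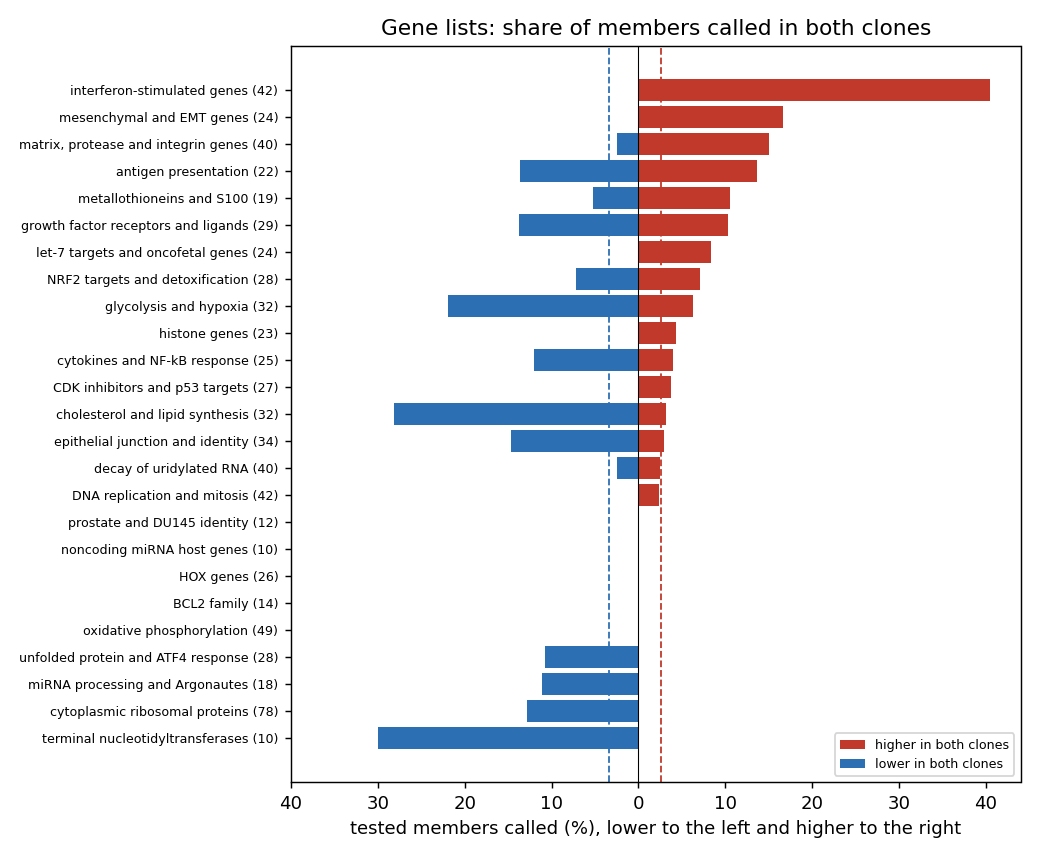
Share of tested members (x axis, %) called higher (red, right) and lower (blue, left) in both clones, for each list with at least 10 tested members, whose number is in brackets. Dashed lines mark the 2.57% and 3.35% of all genes tested; interferon-stimulated genes extend farthest to the right.

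The genes that were lower in both clones were unevenly spread over the genome. By gene symbol, 13605 of the tested genes (98.3%) and 812 of the 819 members were placed on chromosomes 1 to 22 and X (RefSeq, GRCh38.p14). Chromosomes 7, 8, 14, 18 and 21, chosen after the values were seen, held 13.7% of the placed genes and 211 of the 460 placed lower members (45.9%), but 25 of the 352 placed higher members (7.1%). On chromosome 18, 37 of 185 tested genes (20%) were lower in both clones, on chromosome 21 23 of 124 (18.5%), on chromosome 8 48 of 468 (10.3%), on chromosome 7 64 of 637 (10%) and on chromosome 14 39 of 452 (8.63%), against 3.35% of all genes tested. On the other chromosomes 2.12% were lower and 2.79% higher. Chromosome 20, 1 of these others, had 21 of 361 tested genes lower (5.82%) and 4 higher (1.11%).

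On chromosomes 8, 7 and 18 the share of lower genes differed along the chromosome, while on chromosome 14 lower genes were in 7 of 9 windows of 10 Mb with tested genes and on chromosome 21 in all 3 from 20 Mb on. In the first 40 Mb of chromosome 8, 40 of 145 tested genes were lower in both clones and 1 was higher. The median level of the 145 genes relative to the wild type mean was -0.28, -0.28, -0.31 and -0.35 (log2) in the mutant 1 libraries and -1.33, -1.36, -1.31 and -1.42 in the mutant 2 libraries, and between -0.047 and 0.040 in wild type. MTUS1, FAM167A and CNOT7 lie here. From 40 Mb on, where MAL2 lies, 8 of 323 were lower, and the medians were 0.19 in mutant 1 and -0.19 in mutant 2.

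On chromosome 7, 58 of the 415 tested genes that start beyond 60 Mb were lower in both clones, against 6 of the 222 before it. Beyond 60 Mb the median changes were -0.39 in mutant 1 and -0.37 in mutant 2, and before it -0.028 and 0.080. CLDN4, ASNS, CYP51A1 and PDIA4 are on chromosome 7. Between 20 and 40 Mb of chromosome 18, which includes DSG2, 20 of 48 tested genes were lower in both clones and the medians were -0.66 and -0.85. In the 4 windows from 40 to 80 Mb, 15% to 21.1% of the genes were lower in both. On chromosome 21 the medians were -0.69 and -0.26, and LSS and PFKL are located there. MX1 is also on chromosome 21 and rose in both clones. Of the interferon-stimulated genes tested, 7 were on the 5 chromosomes.

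On other chromosomes the clones could differ. The median change on chromosome 5 was 0.14 in mutant 1 and -0.46 in mutant 2, and on chromosome X 0.24 and -0.10. Chromosome 16, at 0.23 and 0.11, and chromosome 22, at 0.16 and 0.12, were above 0 in both. In libraries of the same clones that express LIN28A, the medians were -0.41 and -1.41 in the first 40 Mb of chromosome 8, -0.58 and -0.85 between 20 and 40 Mb of chromosome 18, -0.60 and -0.26 on chromosome 21 and -0.38 and -0.46 beyond 60 Mb of chromosome 7. In the IGROV1 clones they were -0.15 and 0.17, -0.37 and -0.12, -0.13 and 0.0091, and 0.12 and 0.12 in the same order. No test was made of these positions, and DNA copy number was not measured in these data.

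**Figure D4:**
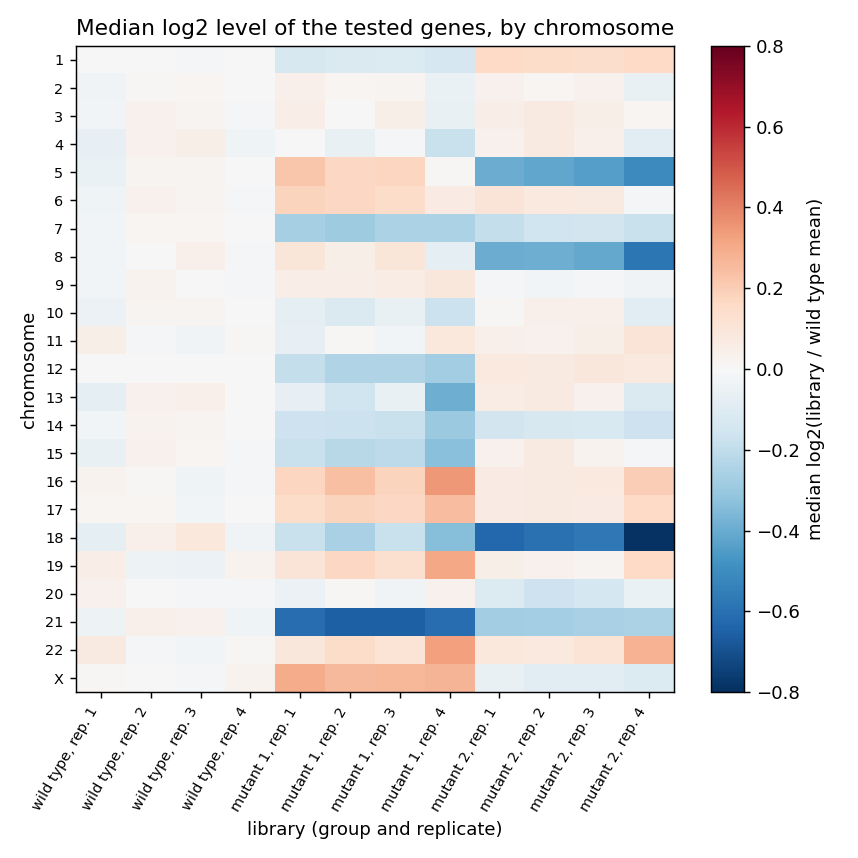
Median over the tested genes of each chromosome (rows) of the log2 level relative to the wild type mean in each library (columns), blue for lower and red for higher. The 4 libraries of each clone share their pattern; the median fold change is below -0.15 for chromosomes 7, 14, 18 and 21 in both clones, chromosomes 5 and 8 in mutant 2 and chromosomes 12 and 15 in mutant 1.

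The 3 genes with the largest changes of opposite sign were ROBO1, ADAMTS12 and SDC2. ROBO1, an axon guidance receptor, was at 1.65, 1.14, 0.651 and 0.724 CPM in wild type and 13.7, 11.3, 16.9 and 14.3 in mutant 1, and had no read in mutant 2, at least 14.6-fold lower than wild type. ADAMTS12, a metalloprotease, was at 2.096, 1.35, 1.12 and 1.45 in wild type and 16.3, 15.2, 17.8 and 19.7 in mutant 1, with 1 read in mutant 2, a wild type to mutant ratio of 62.9 (95% exact interval 10.8 to 2527). SDC2, a syndecan, was at 2.54, 2.80, 4.84 and 2.29 in wild type, 31.5, 30.8, 32.1 and 29.5 in mutant 1 and 0, 0.115, 0.0758 and 0.189 in mutant 2. In all 3 the groups were ordered mutant 1, wild type, mutant 2 without overlap.

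LIN28A-overexpressing DU145 allowed the same clones to be compared with wild type in libraries that the choice of members did not use; the clones and the wild type line are the same, so the history of a clone is shared. Of the 356 higher members, all tested there, 110 (30.9%) were again higher in both clones, which is 36.8% of the 299 genes with that call there, and 1 was lower. Of 457 lower members tested, 227 (49.7%) were again lower, 43.8% of 518, and none was higher. The background there was 2.04% higher and 3.53% lower of 14666 genes tested. The members' median changes were 0.79 and 0.56 for the higher genes in mutant 1 and 2, and -0.79 and -0.65 for the lower. The effect of the mutations, as the mean of both clones minus wild type, differed between parental and LIN28A-overexpressing DU145 in 10 of the higher (2.81%) and 6 of the lower members (1.3%), beside 60 of 14561 genes (0.412%). The members were chosen on the same parental libraries that enter this difference, so nothing is read from their share against that of all genes, and a difference for a single member is affected by that choice too. Over all genes that count lay between 27 and 71 when single parental libraries were left out. It was 37, 28 and 27 without wild type replicate 1, 2 or 3, 34 and 37 without mutant 1 replicate 2 or 3, and 38 and 37 without mutant 2 replicate 2 or 3. LIN28A itself was at 72.8 ± 4.96 CPM in wild type, 387 ± 37.9 in mutant 1 and 246 ± 40.6 in mutant 2 in these cells, so the transduced lines also differ in transgene level.

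CCL5 had the smallest interaction p of the named genes. It was at 2.33 ± 0.816 CPM in wild type, 2.17 ± 0.402 in mutant 1 and 1.87 ± 0.344 in mutant 2 with LIN28A overexpressed, and its effect was larger in parental DU145 by 4.26 ± 0.45, adjusted p = 9.13e-06 (log2). HLA-DRA was at 0.492 ± 0.274 CPM in wild type, 1.01 ± 0.482 in mutant 1 and 0.335 ± 0.181 in mutant 2 with LIN28A, and its difference was -3.95 ± 0.57, adjusted p = 4.95e-04. HLA-DRA had too few reads to be tested in the LIN28A-overexpressing libraries alone. Its level was highest in parental wild type, a group that was used to choose it as a member. CYP24A1 was at 254 ± 57.1 CPM in wild type, 585 ± 84.1 in mutant 1 and 237 ± 66.1 in mutant 2, a difference of 1.60 ± 0.27, adjusted p = 0.00249. Taken without its direction, the fold difference between parental and LIN28A-overexpressing cells was larger for wild type than for either mutant in each of the 3. In wild type, the means of CCL5 and CYP24A1 were lower in parental cells and that of HLA-DRA was higher. At the other end, TXNRD1 had a difference of 0.00063 with an approximate 95% interval of -0.25 to 0.25, from its standard error. ARSD and ROBO1 also had adjusted p = 1.00, but had no or almost no read in at least 1 clone, and ROBO1 moved in opposite directions in the clones.

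Interferon-stimulated genes in LIN28A-overexpressing DU145 had median changes of 0.36 in mutant 1 and -0.12 in mutant 2. None of 43 tested was called higher in both clones, and 1 was called lower in both. The difference between the 2 settings was past the threshold for 3 of 45, IFIT2, OASL and ISG20, all with a larger effect in parental cells. IFI6 was at 34.8 ± 8.60 CPM in wild type, 89.3 ± 43.4 in mutant 1 and 56 ± 9.82 in mutant 2 with LIN28A, and its difference of 1.79 ± 0.43 had an adjusted p of 0.0302. For MX1 the level was 26.8 ± 5.59 CPM in wild type, 43.3 ± 26.4 in mutant 1 and 35.4 ± 7.24 in mutant 2 (difference 1.82 ± 0.43, adjusted p = 0.0274). The cholesterol and lipid list again had 8 lower and 1 higher of 32 genes.

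In IGROV1, whose clones carry other mutations in another background, 298 of the 356 higher members had enough reads to be tested. Of these, 31 (10.4%) were higher in both clones, 3.35% of the 926 genes with that call there, and 39 (13.1%) were lower. Of 408 lower members tested, 81 (19.9%) were lower, 6.51% of 1245, and 20 (4.9%) were higher. The background was 6.65% higher and 8.94% lower of 13932 genes tested. The effect differed between DU145 and IGROV1 in 184 of the higher (51.7%) and 275 of the lower members (59.4%), beside 24.1% of 14935 genes; the parental libraries again chose the members, so nothing is read from these shares. Among the smallest p were those of FAM167A, ADM and ARSD. FAM167A was at 1.55 ± 0.261 CPM in wild type, 4.35 ± 0.732 in mutant 1 and 7.10 ± 1.39 in mutant 2 in IGROV1, where it rose. ADM was at 3.84 ± 1.03 CPM in wild type, 1.31 ± 0.253 in mutant 1 and 2.50 ± 0.523 in mutant 2, lower in the IGROV1 mutants. The differences were -4.16 ± 0.21, adjusted p = 7.69e-14 for FAM167A and 5.61 ± 0.29, adjusted p = 1.34e-13 for ADM. CXCL5, HTR1F, PKP1, POF1B and S100A9 shared the largest adjusted p of the named genes, and none of them had enough reads in IGROV1 to be tested there. ARSD, almost absent from both DU145 clones, was at 35.3 ± 4.66 CPM in wild type, 32.3 ± 8.07 in mutant 1 and 27.4 ± 3.06 in mutant 2 in IGROV1. Its fitted difference of -8.02 ± 0.48, adjusted p = 1.58e-11, depends on edgeR's prior count.

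Interferon-stimulated genes in IGROV1 had median changes of 0.085 and 0.030, with 4 higher and 6 lower in both clones of 38 tested. The effect was larger in DU145 for 20 and smaller for 3 of 44 genes. Ribosomal protein genes had medians of 0.49 and 0.24 in IGROV1, above 0, and the effect was lower in DU145 for 50 of 78. The cholesterol and lipid list had 8 of 31 members lower in both IGROV1 clones and none higher. The effect differed between the 2 lines for 6 of 32 genes, lower in DU145 for 4 of them and higher for 2. LSS, lower in both DU145 clones, had changes of -0.32 and -0.058 in the IGROV1 clones, neither past the threshold (difference -1.09 ± 0.14, adjusted p = 1.68e-06). CYP51A1 and STARD4 were not called in either IGROV1 clone. SCD had changes of -1.26 and -0.99 in the IGROV1 clones (adjusted p = 3.55e-05 and 2.63e-04).

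**Figure D5:**
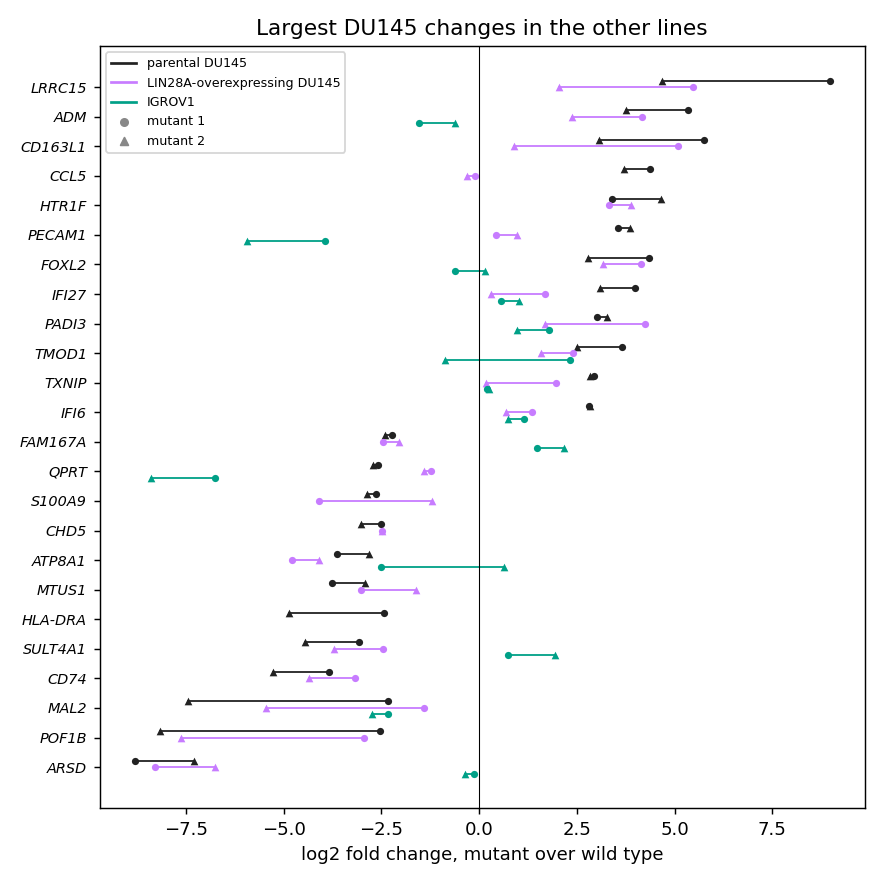
Log2 fold change over wild type of the 12 higher and 12 lower genes with the largest shared changes, in mutant 1 (circles) and mutant 2 (triangles) of parental DU145 (black), LIN28A-overexpressing DU145 (violet) and IGROV1 (green); a gene with too few reads in a line has no point there. Most violet points lie on the side of the black ones, apart from CCL5, while green points lie on both sides of 0.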

How the data were processed

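RNA of 12 DU145 cultures was selected with oligo dT and made into directional libraries. Per the labels and methods, the authors trimmed reads with Trimmomatic 0.39, removed ribosomal RNA, aligned with HISAT2 2.1.0 to hg38 and counted reads per gene with HTSeq (annotation and strand setting not given in the sources used here, so antisense and overlapping genes are uncertain). The deposited files hold raw counts. The summary rows for unassigned reads were left out.

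Genes were filtered by group (filterByExpr) and tested in R 4.3.3 with edgeR 4.0.16 (TMM, quasi-likelihood F test, Benjamini-Hochberg adjusted p under 0.01, 4 libraries a group). The standard error is the absolute log2 fold change over the square root of F. The common biological coefficient of variation was 15.6%. Deviations of same-numbered libraries from their group means correlated from 0.17 to 0.66 in the 4 pairs of mutant 1 with mutant 2. In the 8 pairs with wild type they correlated from -0.34 to 0.29. Mutant 2 replicate 2 correlated more with mutant 1 replicate 1 (0.29) than with mutant 1 replicate 2 (0.17). Numbers thus pair the clones only in part and do not consistently pair wild type. DESeq2 1.42.0 served as an alternative, and the test was tried on simulated data with known answers. Named were the 12 higher and 12 lower members with the largest smaller change (mean of at least 1 CPM, no overlap), 3 each of the most abundant with a change of at least 1 in both clones, 3 of opposite sign and up to 4 called genes per list; others were chosen after their values were seen. Members and lists were chosen with earlier results of these data known. Small RNA files were not used here, and some genes are not reported here. Intervals and floors cover counting error only.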

Additional observations from a re-analysis of the deposited data

Results flagged for a closer look

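In 16 of 238 groups of 4 libraries (named gene by group), 1 library lay outside the rest by Dixon's criterion for 4 values; chance gives about 1 in 20, or about 12. Of the 16, 11 were mutant 1 replicate 4 or mutant 2 replicate 4, the libraries that stood apart in their share of reads outside genes; the part of that in these values was not tested. In CPM, with the range of the other 3 libraries, these were COL4A2, mutant 1 replicate 4 at 430 against 284 to 300, FAM167A, mutant 2 replicate 4 at 24.6 against 20.9 to 21.1, NLRC5, mutant 1 replicate 4 at 22.9 against 30.2 to 31.4, PAPD5, mutant 2 replicate 4 at 47.9 against 69 to 70.2, PDK1, mutant 1 replicate 4 at 10.4 against 15.9 to 16.9, PFKL, mutant 2 replicate 4 at 112 against 94.2 to 96.9, PKP1, mutant 1 replicate 4 at 1.19 against 0.739 to 0.808, SERPINE2, mutant 2 replicate 4 at 37.8 against 45.9 to 47.4, STARD4, mutant 2 replicate 4 at 14.3 against 27.1 to 27.5, USB1, mutant 2 replicate 4 at 156 against 117 to 121 and TUT7, mutant 2 replicate 4 at 14.6 against 24.4 to 25.8. The others were ADAMTS12, mutant 2 replicate 1 at 0.101 against 0, ARSD, mutant 2 replicate 1 at 0.101 against 0, ATP8A1, mutant 1 replicate 1 at 0.555 against 0.148 to 0.185, FAM167A, mutant 1 replicate 1 at 22.7 against 25.3 to 25.5 and HLA-DRA, mutant 2 replicate 3 at 0.227 against 0.0946 to 0.115.

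Effects differed between groups in 10 named cases (log2 differences, adjusted p under 0.01). Parental minus LIN28A-overexpressing DU145 gave 4.26 for CCL5, -3.95 for HLA-DRA and 1.60 for CYP24A1. HLA-DRA had too few reads to be tested in the LIN28A-overexpressing libraries alone. DU145 minus IGROV1 gave -4.16 for FAM167A, 5.61 for ADM and -8.02 for ARSD. Mutant 2 minus mutant 1 gave -8.89 for ADAMTS12, -10.1 for ROBO1, -8.18 for SDC2 and 1.66 for TUT4; the fitted values of ADAMTS12, ROBO1 and ARSD depend on edgeR's prior count, since a mutant had 1 read or none.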

How the results depend on the processing

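No member reversed sign in either clone under any alternative. With an adjusted p under 0.05, 704 genes were higher and 903 lower in both clones, 628 opposite, 5233 changed in mutant 1 and 4859 in mutant 2, and 151 listed genes were called in both with the same sign in place of 99. With a log2 fold change of at least 1 as well, these were 128, 122, 82, 1220, 1289 and 51, and TUT7 in mutant 2, at -0.97, was no longer counted. DESeq2 called 451 higher and 619 lower genes, and 219 for the difference between parental and LIN28A-overexpressing DU145 in place of 60; the cause was not tested.

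Leaving out each library in turn gave 209 to 349 higher and 315 to 531 lower genes and 185 to 295 of opposite sign. Without wild type replicate 3, 209 were higher, 200 of them members, and 185 opposite. The TUT7 change in mutant 2 ranged from -1.08 to -0.82, and where it missed the threshold from -1.04 to -0.82. The difference between parental and LIN28A-overexpressing DU145 ranged from 27 to 71 genes. Without the 3 libraries that stood apart, an alternative chosen after seeing the data, TUT4 in mutant 2 passed the threshold (-0.50, adjusted p = 0.00362), and 308 of the higher and 436 of the lower members were kept. Of 3520 changes of other named genes recomputed under the alternatives, 3384 stayed on their side of the threshold, 136 did not pass it and none reversed.

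With the replicate number as a block, 420 genes were higher and 563 lower in both clones. Of the genes tested, 33.7% differed between the clones, 27.6% to 35.6% with 1 library left out, 14.6% with a log2 fold change of at least 1 and 56.1% with the replicate block over the 8 mutant libraries (34.5% over these without it), alternatives added after seeing the data. The block changed no call of TUT4, ADAMTS12, ROBO1 or SDC2 between the clones. Upper-quartile scaling moved the share of higher calls from 43.5% to 49.9%. Depth limits genes below about 1 CPM, where a few reads decide a call.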
